A study of Mus musculus with 6 samples.

Results

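The genes described here encode the cell-to-cell adhesion molecules of the adherens junction: 4 cadherins (Cdh1, Cdh2, Cdh4 and Cdh11), 4 nectins (Pvrl1, Pvrl2, Pvrl3 and Pvrl4, now called Nectin1 to Nectin4) and 2 catenins (Ctnna1 and Ctnnb1). They were chosen by name, 10 of the 41128 features listed for each library, and all 10 had reads in every library and passed the filter on low values. Transcripts were measured by sequencing poly(A) RNA from whole mouse lenses of E15.5 embryos, in 3 conditional knockout (cKO) and 3 wild-type (WT) libraries. The cKO lenses carried beta1 Flox/Flox alleles (the gene of β1-integrin, Itgb1) and MLR10 Cre, a transgene driving recombination in lens cells, on a mix of strains, with 30 lenses pooled in each replicate. The WT lenses were from C57Bl/6 embryos, with 75 lenses pooled in each replicate, and their records repeat samples of an earlier series. Genotype, presence of Cre, strain, pool size and earlier series therefore all differ between the groups together, and their parts in a difference cannot be told apart. Neither group carried the floxed alleles or Cre alone.

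Cadherins are single-pass membrane proteins whose outer domains bind the same cadherin on the neighbouring cell in the presence of calcium. Inside the cell, β-catenin binds the cadherin tail and α-catenin binds β-catenin and actin filaments, while nectins are calcium-independent immunoglobulin-type adhesion molecules that reach actin through afadin. In the lens, E-cadherin (Cdh1) marks the anterior epithelium, N-cadherin (Cdh2) is found in epithelium and fibre cells, and loss of nectin 1 or nectin 3 is known to disturb eye development in mice.

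Between 20036554 and 28095318 reads were counted per cKO library and between 10023049 and 11531139 per WT library, so that 1 read was worth 0.0356 to 0.0998 CPM (counts scaled to a library sum of 1000000). The CPM of Itgb1, the targeted gene, was 236, 275 and 262 in cKO replicates 1 to 3 and 402, 424 and 448 in WT replicates 1 to 3 (log2 fold change -0.72, SE 0.0769, limma adjusted p = 1.63e-05). These reads cover the whole gene, and no source used here says which part was floxed. Lens fibre markers (6 genes, among them Cryaa and Mip) summed to 168075 to 188687 CPM in cKO and 179296 to 192451 in WT. Lens epithelium markers (5 genes, among them Foxe3 and Pax6) summed to 5636 to 6369 and 5083 to 5828 CPM. Most of the fibre sum was Cryaa and Crybb1, and most of the epithelium sum Cryab and Sparc, so the sums hide single genes. Of the fibre markers 1 passed as higher (Maf) and 1 as lower (Mip). Of the epithelium markers 1 passed as higher (Sparc) and 2 as lower (Pdgfra and Foxe3). Several sets of markers of tissue around the lens were higher in cKO, beside 20.9% of all features tested. Of 12 endothelial genes 10 passed the test as higher (summed 223 to 267 CPM in cKO against 142 to 171 in WT). So did 8 of 9 tested macrophage genes (26.4 to 36.1 against 11.01 to 13.2) and 4 of 5 tested genes of periocular mesenchyme (34.0 to 53.2 against 17.4 to 21.04). Of 6 pericyte genes 3 were higher (130 to 153 against 91.1 to 119) and 1 was lower. Of 3 tested red cell genes 1 was higher and 1 lower, with overlapping sums (88.9 to 161 against 90.1 to 108). Retina and pigment sums overlapped too (2.71 to 4.80 against 1.56 to 12.1). None of the 5 genes of surface ectoderm and cornea reached the filter (summed 0.445 to 0.649 CPM in cKO and 0.200 to 0.701 in WT), and Krt12, the defining keratin of corneal epithelium, was at 0 in all 6 libraries. A scarce gene could reach the filter of at least 1 CPM in 3 libraries through 1 group alone, which favours calls in that direction. The macrophage gene Tyrobp did so through cKO (1.14 to 1.43 CPM against 0.0998 to 0.694 in WT). The sums also hold genes that were not tested. In whole lenses, fewer cells of a type and less RNA per cell cannot be told apart.

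Of the 10 genes, Cdh1 and Pvrl3 were higher in cKO lenses, Cdh4, Ctnna1 and Ctnnb1 were lower, and Cdh2, Cdh11, Pvrl1, Pvrl2 and Pvrl4 did not pass the test. E-cadherin transcripts were 38.5% more abundant in cKO in CPM and nectin 3 transcripts 25.8% more, while R-cadherin (Cdh4) transcripts were 37.7% less abundant, α-catenin 15.1% less and β-catenin 13.1% less. A call means an adjusted p under 0.05 over all 11941 features tested, by limma on log2(CPM + 1). The 2 of 10 called higher stand beside 20.9% of all features tested, and the 3 of 10 called lower beside 15.9%. CPM ranges of the groups did not overlap for the same 5 genes, against 48.1% of all features, so the counts do not set the 10 genes apart from the transcriptome. The median log2 fold change was -0.14 over the 10 genes and 0.03 over all features tested. The median size of the change, regardless of direction, was 0.23 and 0.21. Over all features, 2499 were higher and 1904 lower, against 1907 and 2307 once GC content and length were corrected for.

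**Figure D1:**
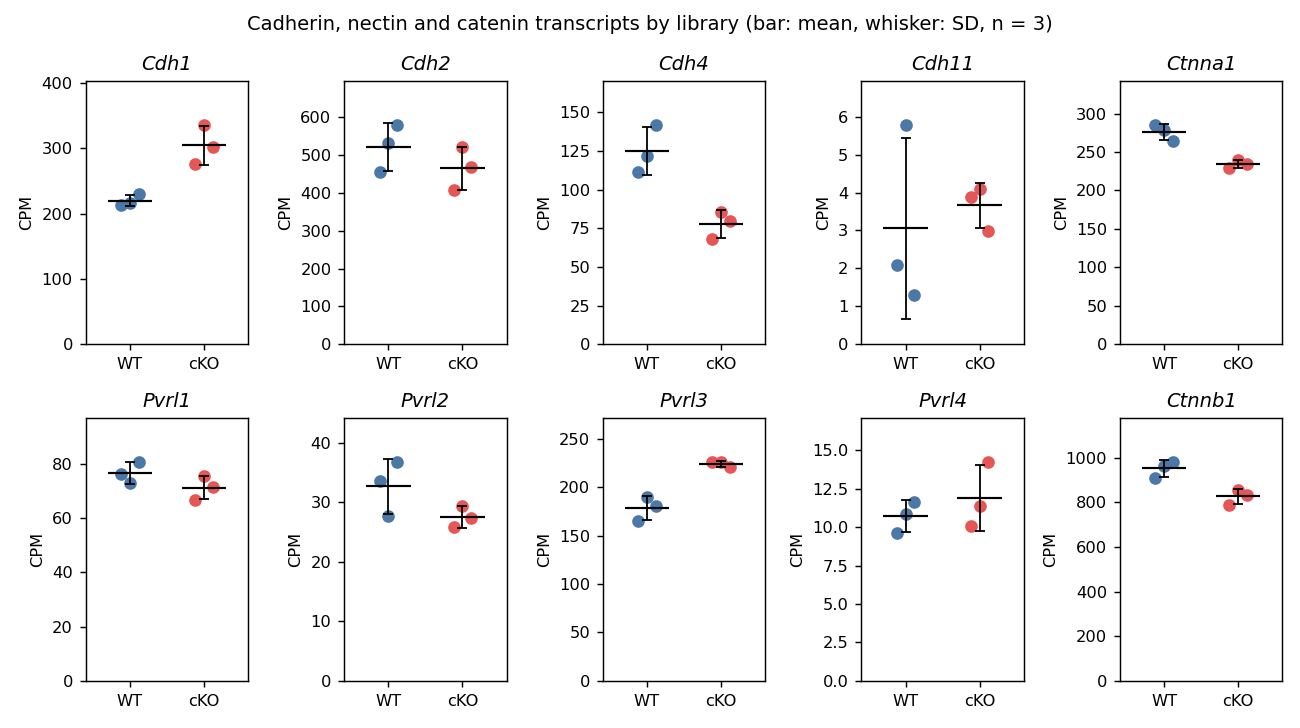
CPM of each gene (vertical axis of each panel, from 0) in the 3 WT libraries (blue) and the 3 cKO libraries (red), where a point is a library, the bar the mean and the whisker the SD. The points of the groups do not overlap for Cdh1, Cdh4, Pvrl3, Ctnna1 and Ctnnb1, and 1 WT library stands above all others for Cdh11.

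Cdh1 encodes E-cadherin, the cadherin of epithelia (ENSMUSG00000000303, GRCm38 chromosome 8, 106603351 to 106670246, plus strand, protein coding). Its level was 276, 336 and 303 CPM in cKO replicates 1 to 3 and 213, 217 and 230 CPM in WT replicates 1 to 3. Every cKO library was above every WT library. The mean was 305 ± 30.4 CPM in cKO and 220.1 ± 8.73 in WT (SD, n = 3 each), a log2 fold change of 0.46 (SE 0.0804, 95% interval 0.29 to 0.64, limma adjusted p = 0.000733). It stayed called in all 16 alternative analyses of the data, between 0.39 and 0.53. Of the lens epithelium markers 1 of 5 was higher and 2 were lower, with sums of 5636 to 6369 CPM in cKO and 5083 to 5828 in WT, and their part in the Cdh1 value was not tested. Genes of surface ectoderm and cornea were near 0 as given above.

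Cdh4 encodes R-cadherin, a classical cadherin first described in the retina (ENSMUSG00000000305, chromosome 2, 179442431 to 179899373, plus strand). Its level was 68.0, 85.7 and 79.6 CPM in the cKO libraries and 111, 122 and 142 CPM in the WT libraries. The highest cKO library was below the lowest WT library. In the mean, 125 ± 15.506 CPM in WT stood against 77.8 ± 8.99 in cKO, a log2 fold change of -0.68 (SE 0.103, 95% interval -0.90 to -0.45, limma adjusted p = 0.000300), the change of greatest size among the 10 genes. It too stayed called in all 16 alternatives, from -0.75 to -0.58.

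Cdh2 encodes N-cadherin, the cadherin that joins lens fibre cells (ENSMUSG00000024304, chromosome 18, 16588877 to 16809246, minus strand). The libraries gave 406, 520 and 467 CPM in cKO and 455, 531 and 579 CPM in WT. These ranges overlapped widely. The log2 fold change was -0.17 (SE 0.102, 95% interval -0.39 to 0.05, limma adjusted p = 0.221), so that the interval ran from a modest fall to no change. It passed with the GC and length correction (-0.17, adjusted p = 0.0472). Its size hung on single libraries, at -0.07 without cKO replicate 1 (adjusted p = 0.598), -0.09 without WT replicate 3 (0.531), -0.25 without cKO replicate 2 (0.0882) and -0.26 without WT replicate 1 (0.0567).

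Cdh11 encodes cadherin 11, a type II cadherin of mesenchymal cells (ENSMUSG00000031673, chromosome 8, 102632095 to 102785642, minus strand). It was the scarcest of the 10, at 3.89, 4.11 and 2.99 CPM in cKO (78, 83 and 84 reads) and 2.08, 5.79 and 1.30 CPM in WT (24, 66 and 13 reads). WT replicate 2 lay above all 3 cKO libraries and the other WT libraries below them. The log2 fold change was 0.35 (SE 0.355, 95% interval -0.47 to 1.17, limma adjusted p = 0.480). Without WT replicate 2 it was 0.80 and passed the test (adjusted p = 0.00773), whereas without WT replicate 3 it was 0.02 (adjusted p = 0.967) and without WT replicate 1 0.23 (adjusted p = 0.700). The summed retina and pigment markers, 7 genes such as Tyr and Pmel, were also highest in that library, at 12.1 CPM against 1.56 and 1.80 in WT replicates 1 and 3 and 3.59, 4.80 and 2.71 in cKO replicates 1 to 3. The periocular mesenchyme sum was also highest there among the WT libraries, at 21.04 CPM beside 17.4 and 18.9, and was 50.2, 53.2 and 34.0 CPM in cKO, and Foxc2 of that list was at 0 in all libraries. The part of these tissues in the Cdh11 values was not tested.

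**Figure D2:**
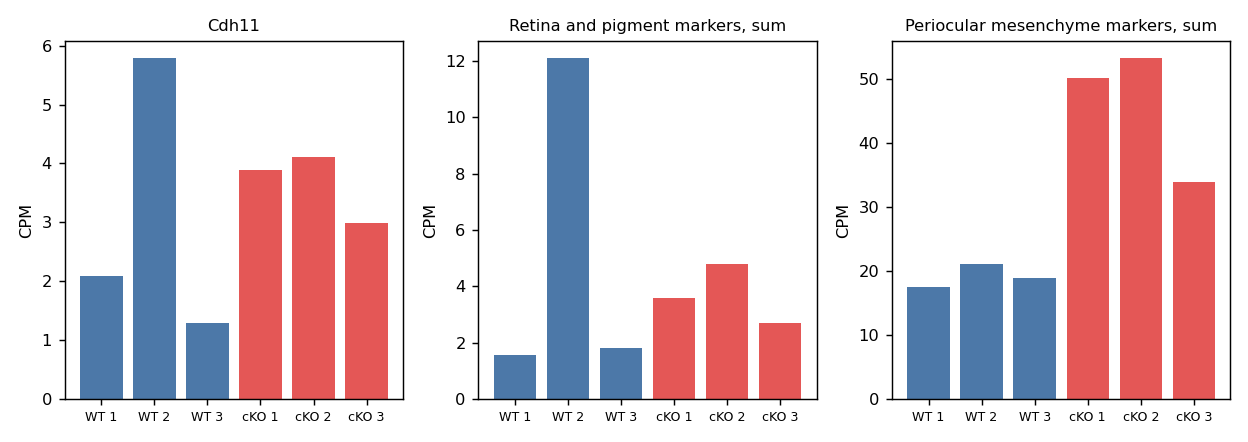
CPM (bars, from 0) of Cdh11, of the summed retina and retinal pigment markers and of the summed periocular mesenchyme markers in each WT (blue) and cKO (red) library. WT replicate 2 has the highest bar for Cdh11 (5.79 CPM) and for the retina and pigment sum (12.1 CPM), while the mesenchyme sum separates the groups.

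Levels of different genes were compared per length, in RPKM (CPM per kilobase), as each library's share of the summed RPKM of the 4 cadherins. The summed level did not separate the groups, at 136 ± 14.9 RPKM in cKO and 131 ± 11.5 in WT (exact two-sided permutation p = 0.7). Its make-up differed. E-cadherin took 49.8%, 48.8% and 48.7% of the sum in cKO replicates 1 to 3 and 39.2%, 36.1% and 35.4% in WT replicates 1 to 3. N-cadherin took 42.4% ± 0.598 in cKO and 49.4% ± 1.70 in WT, R-cadherin 7.89% ± 0.170 and 13.1% ± 0.548, and cadherin 11 0.644% ± 0.121 and 0.559% ± 0.433. The shares of E-, N- and R-cadherin did not overlap between groups. The spread over replicates of the R-cadherin share was small beside the difference of -5.26 percentage points. A larger E-cadherin share lowers the other shares of the sum, so these are not separate results. Cdh2 itself overlapped between groups and did not pass the test. The log2 ratio of Cdh1 to Cdh2 was higher in cKO by 0.63, that of Cdh1 to Cdh4 by 1.15, and that of Cdh4 to Cdh2 lower, with a difference of -0.52. So E-cadherin gained on both other classical cadherins, and R-cadherin lost ground also to N-cadherin. With 3 libraries against 3 the exact permutation test cannot go below p = 0.1, which each of these non-overlapping quantities reached (0.145 adjusted over the 16 quantities compared).

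Which of E- and N-cadherin was the more abundant depended on the gene length used. With the lengths behind the deposited RPKM (4574 bases for Cdh1 and 8066 for Cdh2), the log2 ratio of Cdh1 to Cdh2 was 0.26, 0.19 and 0.19 in cKO and -0.27, -0.47 and -0.51 in WT. With the longest annotated transcript as length (4430 and 4843 bases), it was -0.43, -0.50 and -0.50 in cKO and -0.96, -1.16 and -1.20 in WT, so N-cadherin led in every library. The difference between groups is the same with either length. The R-cadherin share differed by -4.15 percentage points with transcript lengths.

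**Figure D3:**
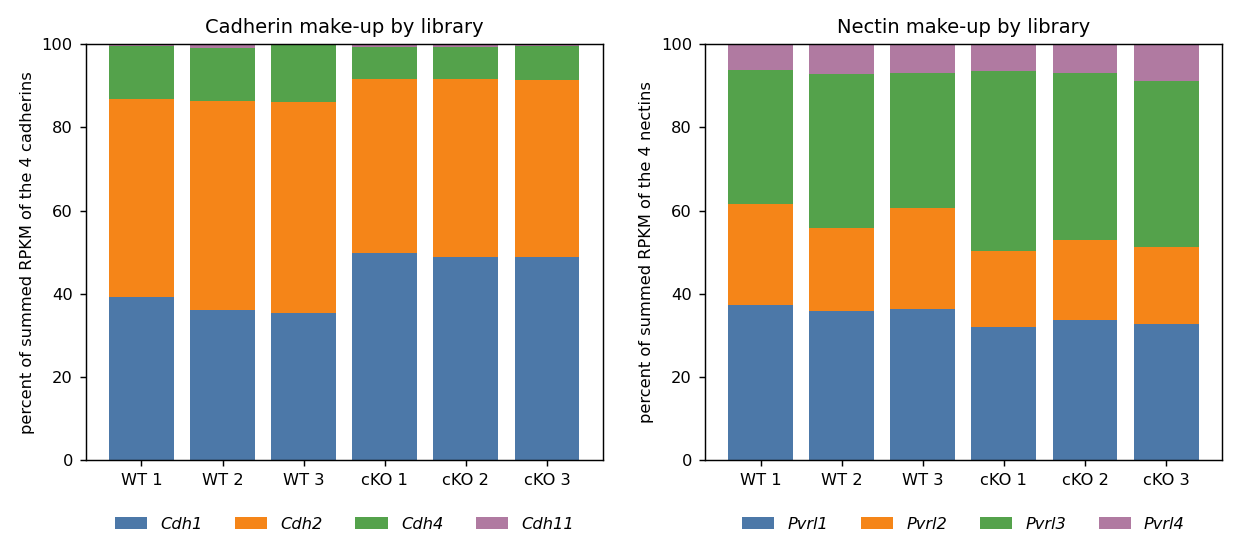
Percent of the summed RPKM (vertical axis) contributed by each cadherin (left) and each nectin (right) in each library, stacked to 100. The Cdh1 part is larger and the Cdh4 part smaller in all 3 cKO libraries, and the Pvrl3 part is larger in all 3 cKO libraries, than in any WT library.

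Among the nectins, Pvrl3 passed the test and the other 3 did not. Pvrl3 encodes nectin 3, which binds nectin 1 on the neighbouring cell in trans (ENSMUSG00000022656, chromosome 16, 46387706 to 46498525, minus strand). Its level was 226, 226 and 221 CPM in cKO and 165, 189 and 181 CPM in WT. All cKO libraries lay above all WT libraries, and the cKO libraries lay close together. The mean was 224 ± 3.06 against 178 ± 12.5 CPM (log2 fold change 0.33, SE 0.0725, 95% interval 0.18 to 0.49, limma adjusted p = 0.00325), and the call held in all 16 alternatives, at 0.24 to 0.38.

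Pvrl2 encodes nectin 2 (ENSMUSG00000062300, chromosome 7, 19716644 to 19750483, minus strand). It was at 25.8, 29.4 and 27.4 CPM in cKO and 33.6, 27.7 and 36.8 CPM in WT. WT replicate 2 fell among the cKO libraries and the other WT libraries lay above them. The log2 fold change was -0.23 (SE 0.104, 95% interval -0.46 to -0.01, limma adjusted p = 0.0974). It passed as lower with TMM scaling (adjusted p = 0.0385), RLE scaling (0.0377), edgeR (0.0290), DESeq2 (0.0459) and limma-voom (0.0351) on recovered reads, and without WT replicate 2 (-0.34, adjusted p = 0.0265). It did not pass, with a smaller change, without WT replicate 3 (-0.14, adjusted p = 0.320) or with the GC and length correction (-0.13, adjusted p = 0.267).

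Pvrl1 encodes nectin 1, the trans partner of nectin 3 (ENSMUSG00000032012, chromosome 9, 43743984 to 43807461, plus strand). It was at 66.7, 75.5 and 71.5 CPM in cKO and 76.3, 72.8 and 80.8 CPM in WT, with overlapping ranges. Its log2 fold change was -0.10 (SE 0.0785, 95% interval -0.27 to 0.06, limma adjusted p = 0.321). Pvrl4 encodes nectin 4 (ENSMUSG00000006411, chromosome 1, 171370099 to 171388598, plus strand) and was the scarcest nectin, at 10.1, 11.4 and 14.3 CPM in cKO and 9.63, 10.9 and 11.7 CPM in WT. Its ranges overlapped too (log2 fold change 0.13, SE 0.128, 95% interval -0.15 to 0.41, limma adjusted p = 0.455).

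The summed nectin level was 42.9 ± 1.62 RPKM in cKO and 41.5 ± 2.13 in WT (exact two-sided permutation p = 0.3). Nectin 3 took 41.1% ± 1.73 of it in cKO and 33.7% ± 2.78 in WT. The shares of nectin 1 (32.9% ± 0.823 against 36.5% ± 0.807) and nectin 2 (18.7% ± 0.557 against 22.8% ± 2.45) were smaller in every cKO library than in every WT library. A larger nectin 3 share lowers the other shares of the sum, so these are not separate results. Pvrl1 and Pvrl2 themselves overlapped between groups and did not pass the test. Nectin 4 took 7.40% ± 1.23 and 6.89% ± 0.456, with overlap. The log2 ratio of Pvrl3 to Pvrl1, the trans-binding pair, was higher in cKO by 0.44, with no overlap. For this ratio and for the shares of nectins 1, 2 and 3, the exact two-sided permutation p was 0.1 (0.145 adjusted). That is the smallest p this design allows, so the test could not pass. With transcript lengths the ratio favoured Pvrl3 in every library, and the difference was the same. In CPM, which weights the long Pvrl3 transcript more, the summed level did separate the groups (335 ± 7.24 against 298 ± 12.9).

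RefSeq's promoter table (GRCm38.p6, 300 bases around an annotated start) held windows for 4 of the 10 genes: Pvrl2, Pvrl3, Pvrl4 and Ctnnb1. Both strands were searched for CACCTG, the E-box bound by Snail and Zeb family repressors of cadherins, whose reverse complement is CAGGTG. It was in 20.2% of the 32817 windows of that length. Among the 4 genes it was found once, in Pvrl2, and not in the windows of Pvrl3, Pvrl4 or Ctnnb1. The bases upstream of a RefSeq start are shown for the nectin that rose, the one that passed under some settings only and the catenin that fell. These stretches lie within the gene spans given with each gene, so they are not upstream of the whole gene. They are printed on each gene's own strand, 5′ to 3′, with the E-box in capitals.
Pvrl3 (chr16:46496968-46497217, minus strand): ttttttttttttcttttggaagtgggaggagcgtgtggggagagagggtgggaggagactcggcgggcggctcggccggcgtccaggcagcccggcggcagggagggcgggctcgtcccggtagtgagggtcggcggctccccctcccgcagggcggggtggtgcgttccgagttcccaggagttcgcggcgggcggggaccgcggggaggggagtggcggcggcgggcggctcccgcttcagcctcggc
Pvrl2 (chr7:19749574-19749823, minus strand): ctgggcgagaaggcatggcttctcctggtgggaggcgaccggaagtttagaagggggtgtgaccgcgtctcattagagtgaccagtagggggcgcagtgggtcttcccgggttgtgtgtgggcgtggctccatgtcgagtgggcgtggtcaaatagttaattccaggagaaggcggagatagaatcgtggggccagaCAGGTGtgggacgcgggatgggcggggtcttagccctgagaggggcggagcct
Ctnnb1 (chr9:120933150-120933399, plus strand): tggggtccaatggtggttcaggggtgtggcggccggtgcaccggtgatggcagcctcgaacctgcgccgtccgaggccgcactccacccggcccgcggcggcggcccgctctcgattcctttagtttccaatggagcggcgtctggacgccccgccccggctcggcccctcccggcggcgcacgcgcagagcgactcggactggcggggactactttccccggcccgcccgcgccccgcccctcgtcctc
The full windows of Pvrl3 and Ctnnb1 were richer in G and C (73.7% and 75.3%) than that of Pvrl2 (62.7%), with 40, 46 and 20 CG pairs. For Ctnnb1 these values are of the window shown, and another window that overlaps it had 75% and 51 CG pairs. A match describes the letters only.

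Both catenins were lower in cKO. Ctnnb1 encodes β-catenin, which links cadherin tails to α-catenin and also carries Wnt signals to the nucleus (ENSMUSG00000006932, chromosome 9, 120929216 to 120960507, plus strand). It was the most abundant of the 10 genes, at 790, 856 and 834 CPM in cKO and 910, 963 and 983 CPM in WT. No cKO library reached the lowest WT library. The log2 fold change was -0.20 (SE 0.0691, 95% interval -0.35 to -0.05, limma adjusted p = 0.0336). The call was lost without cKO replicate 1 (adjusted p = 0.101) or 3 (0.0964) and without WT replicate 2 (0.121) or 3 (0.0892), while the direction stayed. Of its 50-base words, 15.2% also lie in transcripts of the antisense gene Ulk4, which was listed at 3.06 to 4.49 CPM.

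Ctnna1 encodes αE-catenin, the actin-binding partner (ENSMUSG00000037815, chromosome 18, 35118859 to 35254779, plus strand). Its level was 229, 240 and 234 CPM in cKO and 285, 278.5 and 264 CPM in WT. The groups did not overlap. In the mean, 276 ± 10.8 CPM in WT stood against 234 ± 5.28 in cKO (log2 fold change -0.24, SE 0.0674, 95% interval -0.38 to -0.09, limma adjusted p = 0.0149). The call was lost without cKO replicate 3 (adjusted p = 0.0626) or WT replicate 2 (0.0650).

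The balance of the catenins did not differ beyond the spread between libraries, with a log2 ratio of Ctnnb1 to Ctnna1 in RPKM of 1.36 ± 0.0281 in cKO and 1.32 ± 0.111 in WT (exact two-sided permutation p = 0.8). The log2 ratio of Ctnnb1 to the summed cadherins in RPKM was 0.36, 0.16 and 0.27 in cKO and 0.59, 0.52 and 0.44 in WT, with no overlap (exact two-sided permutation p = 0.1, the smallest possible, 0.145 adjusted). In CPM these ratios overlapped (exact two-sided permutation p = 0.2).

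**Figure D4:**
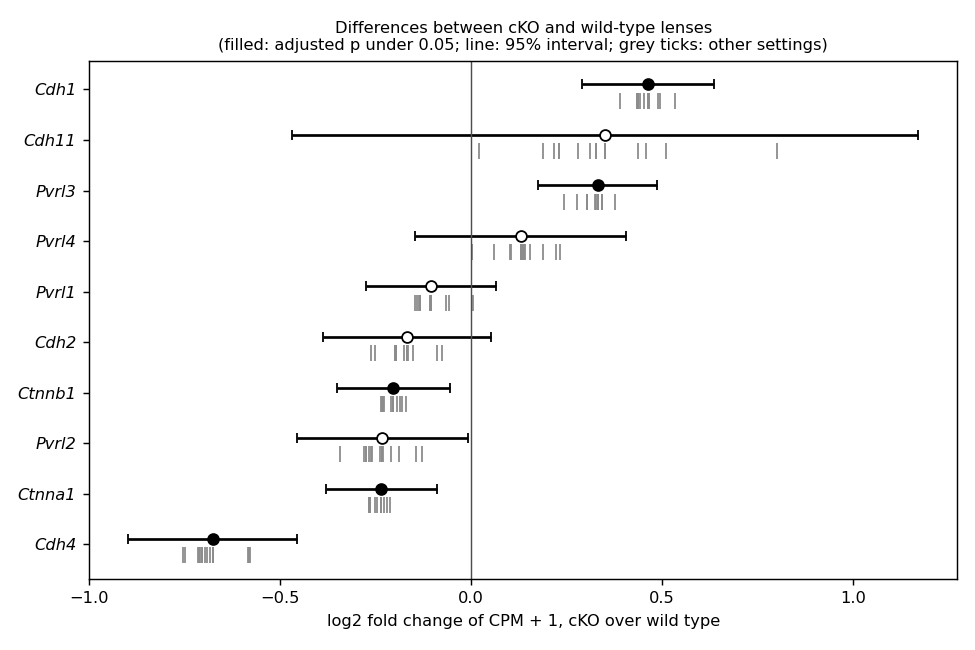
Log2 fold change of CPM + 1, cKO over WT (horizontal axis), for each gene, with the 95% interval as a line, filled points for calls at an adjusted p under 0.05 and grey ticks for the values in the alternative analyses. Cdh1 and Pvrl3 lie to the right of 0 and Cdh4, Ctnna1 and Ctnnb1 to the left, while the interval of Cdh11 runs from -0.47 to 1.17.

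In order of level per length, WT lenses had Ctnnb1 at 187 ± 7.36 RPKM, Ctnna1 at 74.6 ± 2.92, Cdh2 at 64.7 ± 7.78, Cdh1 at 48.1 ± 1.91, Cdh4 at 17.2 ± 2.14, Pvrl1 at 15.2 ± 0.790, Pvrl3 at 13.99 ± 0.977, Pvrl2 at 9.504 ± 1.34, Pvrl4 at 2.86 ± 0.275 and Cdh11 at 0.725 ± 0.569. Ranges of neighbours overlapped for Ctnna1 with Cdh2, Cdh4 with Pvrl1 and Pvrl1 with Pvrl3. In cKO lenses Cdh1 stood second at 66.6 ± 6.64 RPKM, behind Ctnnb1 at 162 ± 6.54, and its range overlapped that of Ctnna1 (63.3 ± 1.43), which overlapped Cdh2 (57.6 ± 7.02). Then came Pvrl3 at 17.6 ± 0.240, Pvrl1 at 14.1 ± 0.873, Cdh4 at 10.7 ± 1.24, Pvrl2 at 8.003 ± 0.522, Pvrl4 at 3.18 ± 0.573 and Cdh11 at 0.869 ± 0.141 RPKM. Cdh4 thus stood above Pvrl3 in every WT library and below it in every cKO library on this scale. With transcript lengths the order differed, and Cdh4 and Pvrl3 overlapped in WT. Cdh2 then stood second in both groups, at 107.7 ± 13.0 CPM per kilobase in WT and 95.9 ± 11.7 in cKO. Its range did not overlap that of the next gene, Ctnna1 in WT (73.9 ± 2.89) and Cdh1 in cKO (68.8 ± 6.85). Pvrl3 stood above Pvrl1 in every WT library (19.6 ± 1.37 against 13.6 ± 0.706).

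The genes whose log2(CPM + 1) followed a member most closely over the 6 libraries were Hnrnph2 and Gmps for Cdh1 (Pearson r = 0.9996 and 0.999), Arhgap39 and Flot2 for Cdh4 (both 0.999), Usp38 and Naa30 for Pvrl3 (0.998 and 0.997), Scnm1 and Pdia4 for Ctnna1 (0.998 and 0.997) and Tmbim6 and Wdr1 for Ctnnb1 (both 0.998). These are descriptions over 6 libraries in 2 groups, chosen as the highest among all features tested.

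Among partners of the cadherins and nectins, genes were called in both directions. Over all features tested, 20.9% were called higher and 15.9% lower. The counts of each list below stand beside these shares and are not read as results about a list. Of 22 tested genes among 24 catenins and actin linkers of the junction, 2 were higher and 7 lower (median log2 fold change -0.12). Shroom3, an organiser of apical actin, fell from 45.7 ± 6.19 to 26.8 ± 3.01 CPM (-0.74, limma adjusted p = 0.000199), and Ctnnd2, which encodes δ-catenin, from 287 ± 13.8 to 228 ± 19.6 CPM (-0.34, adjusted p = 0.00482). Vcl, which encodes the actin linker vinculin, rose from 16.7 ± 3.79 to 29.8 ± 4.68 CPM (0.81, adjusted p = 0.00207), with 38.2% of its words shared with the neighbouring gene Ap3m1. Ctnnd1, the gene of p120-catenin, was listed at 0 in all 6 libraries, and 64.3% of its words also lie in transcripts of Gm28635, so the 0 does not show that the transcript is missing. Mllt4, the gene of the nectin partner afadin, did not pass, at 172 ± 17.9 CPM in cKO and 201 ± 17.3 in WT (-0.22, adjusted p = 0.0683). Leaving out cKO replicate 1 gave 3 lower, leaving out cKO replicate 3 or WT replicate 2 gave 4, no filter on low values gave 4 and limma-voom 11. Leaving out cKO replicate 2 or 3 or WT replicate 1 or 2 gave 1 higher. With the replicate number as a block, 4 were higher.

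Of 19 other cadherin genes, mostly classical and type II, 8 were tested, 2 were higher and 1 was lower (median 0.18). Cdh7 fell from 4.41 ± 0.341 to 1.12 ± 0.113 CPM (-1.35, limma adjusted p = 9.27e-06). Cdh5, the cadherin of blood vessels and one of the endothelial markers that were higher as a list, rose from 26.7 ± 3.22 to 41.7 ± 1.85 CPM (0.63, adjusted p = 0.000271). Cdh6, at 3.19 ± 0.137 CPM in WT, rose to 4.91 ± 0.533 (0.49, adjusted p = 0.00917). A second gene of this list was lower without WT replicate 3 and with edgeR or limma-voom, and with the GC and length correction 1 was higher, since Cdh6 did not pass (adjusted p = 0.0730).

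Of 19 nectin-like and other immunoglobulin adhesion genes 15 were tested, 5 higher and 1 lower (median 0.13). Jam2, a junctional adhesion molecule, rose from 5.64 ± 0.163 to 12.1 ± 0.687 CPM (0.98, limma adjusted p = 1.93e-05). L1cam, a neural adhesion molecule, rose from 0.856 ± 0.123 to 2.46 ± 0.267 CPM (0.90, adjusted p = 0.000441). L1cam was below 1 CPM in every WT library (0.780 to 0.998) and passed the filter through the cKO libraries alone. The count of 5 higher includes it. Bcam, a laminin-binding adhesion molecule, fell from 15.1 ± 1.71 to 5.95 ± 1.15 CPM (-1.22, adjusted p = 2.43e-05). Leaving out cKO replicate 2 or 3, or filtering more strictly, gave 3 higher, and the GC and length correction gave 2 lower. Endothelial markers, which this list partly holds (Esam), were higher in the same libraries, and their part in the count was not tested.

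Protocadherins with the Fat, Dachsous and Celsr genes gave 3 higher and 5 lower of 16 tested among 24 (median -0.09). Pcdh1 (0.81, limma adjusted p = 0.000185) and Dchs1 (0.62, adjusted p = 0.000841), a ligand of Fat cadherins in planar polarity, were higher, and Pcdh19 (-0.74, adjusted p = 0.000758) was lower. Leaving out cKO replicate 1, WT replicate 2 or WT replicate 3 gave 2 lower, and no filter gave 3.

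Of 20 tight junction genes 10 were tested, 2 higher and 3 lower (median 0.19). Crb2, an apical polarity protein, fell from 125 ± 15.504 to 79.4 ± 9.07 CPM (-0.65, limma adjusted p = 0.000374). Cldn5, the claudin of blood vessels (0.59, adjusted p = 0.000861), and Inadl (0.38, adjusted p = 0.00508) rose, the former also an endothelial marker. Most desmosome genes were scarce, but Pkp2 stood at 66.0 ± 4.31 CPM in cKO and 67.2 ± 1.44 in WT (-0.03, limma adjusted p = 0.815). Of 13 desmosome genes 5 were tested, 0 higher and 1 lower. That 1 was Dsc2, a desmosomal cadherin (-0.48, limma adjusted p = 0.0218), whose groups overlapped and which did not pass without cKO replicate 1 or 3 or WT replicate 2 or 3. Dsp (0.15, adjusted p = 0.411) and Evpl (-0.18, adjusted p = 0.431) did not pass.

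**Figure D5:**
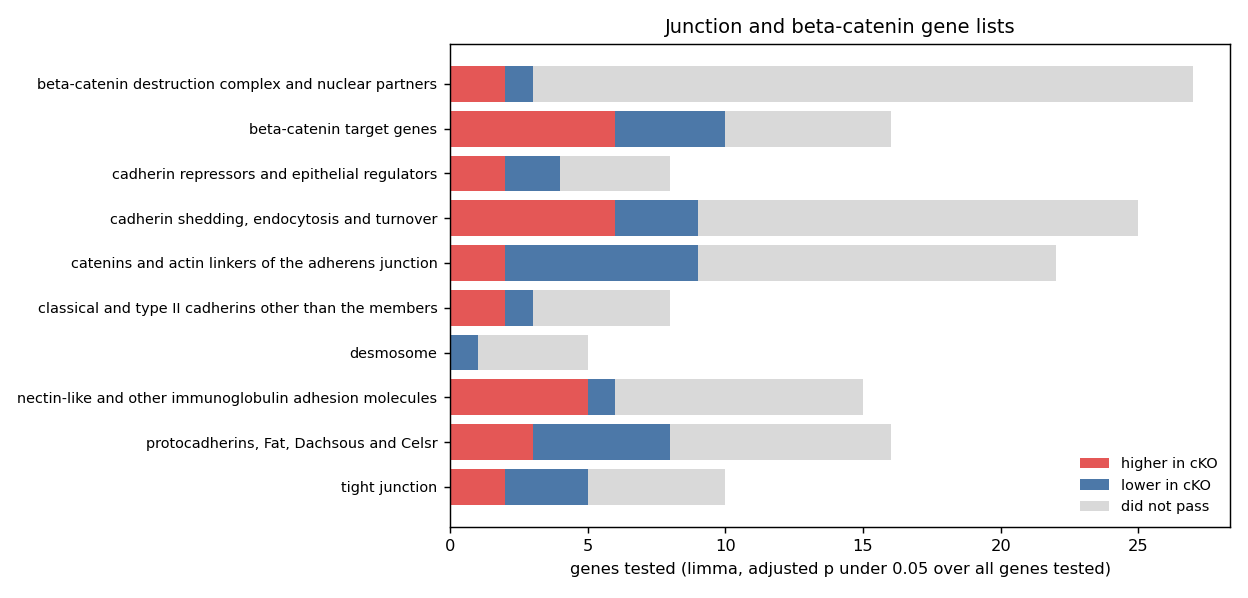
Number of tested genes (horizontal axis) in each of 10 lists of junction and β-catenin genes that were called higher in cKO (red), called lower (blue) or did not pass (grey). The list of catenins and actin linkers has 7 lower and 2 higher of 22, and the nectin-like list 5 higher and 1 lower of 15. Over all features tested, 20.9% were called higher and 15.9% lower.

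All 25 genes of cadherin shedding, endocytosis and turnover were tested, of which 6 were higher and 3 lower (median 0.06). Mmp14, a membrane-bound matrix protease, rose from 7.20 ± 0.768 to 21.1 ± 2.68 CPM (1.43, limma adjusted p = 1.45e-06). Rab5a, a GTPase of early endosomes, rose from 83.9 ± 1.84 to 119 ± 1.76 CPM (0.50, adjusted p = 0.000145), and Ap2m1, a subunit of the clathrin adaptor, from 31.5 ± 0.310 to 44.3 ± 1.04 CPM (0.48, adjusted p = 0.000386). Words shared with other genes, mainly pseudogenes for Ap2m1, made up 9.06% and 41.1% of those of Rab5a and Ap2m1. Counts of 6 lower came with TMM or RLE scaling, edgeR, limma-voom and the GC and length correction, and of 5 with DESeq2 or the replicate block.

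For β-catenin, 27 genes of its destruction complex and nuclear partners were tested, 2 higher and 1 lower (median 0.06). Btrc, the ubiquitin ligase adaptor that marks β-catenin for degradation, fell from 60.1 ± 0.433 to 39.1 ± 1.41 CPM (-0.61, limma adjusted p = 5.23e-05). Pygo1, a nuclear co-activator (0.62, adjusted p = 0.000232), and Csnk1a1, the kinase that primes β-catenin (0.26, adjusted p = 0.00974), rose, the latter not with the GC and length correction (adjusted p = 0.175). Leaving out WT replicate 3 gave 5 higher, and the replicate block 6. Without cKO replicate 2 or WT replicate 1 or 2, 2 were lower. With TMM or RLE scaling, edgeR, DESeq2, limma-voom and the replicate block, 3 were lower.

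Genes known as β-catenin targets in other tissues went both ways, 6 higher and 4 lower of 16 tested among 23 (median -0.04). Ephb2, a guidance receptor, fell from 45.6 ± 4.45 to 23.5 ± 2.76 CPM (-0.93, limma adjusted p = 1.87e-05), whereas Sox9, a transcription factor, rose from 1.28 ± 0.290 to 4.75 ± 0.761 CPM (1.33, adjusted p = 3.33e-05) and Tnfrsf19 rose by 0.72 on the log2 scale (adjusted p = 0.000359).

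Of 22 cadherin repressors and epithelial regulators 8 were tested, 2 higher and 2 lower (median 0.12). Klf4, an epithelial transcription factor, rose from 1.30 ± 0.243 to 6.49 ± 0.603 CPM (1.71, limma adjusted p = 1.45e-06). Tcf4 rose by 0.42 (adjusted p = 0.00166), and Tcf3 fell by 0.30 (adjusted p = 0.00817). The other lower call was Foxe3 (-0.37, adjusted p = 0.0424), whose groups overlapped. The part of these genes in the Cdh1 value was not tested. Without cKO replicate 3 neither lower call was kept. Only 1 gene was lower without cKO replicate 1 or WT replicate 1 or 3, with no filter and with the replicate block. The repressor gene Zeb2 was at 139 ± 14.6 CPM in cKO and 119 ± 11.8 in WT (0.22, limma adjusted p = 0.0780). Zeb1 was at 53.1 ± 3.37 and 52.3 ± 3.09 CPM (0.02, adjusted p = 0.863), and neither passed the test. The repressor genes Snai1 (0.320 to 0.699 CPM in cKO and 0.0877 to 0.299 in WT) and Snai2 (0.997 to 1.09 and 0.954 to 1.23) were below the filter. So was Twist1 (0.747 to 1.15 and 0 to 0.173), a periocular mesenchyme marker as well. At these depths such levels rest on few reads.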

How the data were processed

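Each library came as a deposited table with CPM and RPKM for 41128 features, which the authors computed, per the file headers. CPM are reads scaled to a sum of 1000000 over the listed features, and RPKM are CPM per kilobase of the gene length the authors used. The submitters' processing notes name edgeR and GRCm38. No source used here names the aligner, counter or annotation release, and the library kit named in the labels' protocols does not mark strand. CPM values were whole multiples of 1 read, within 0.02 reads, in 100% of values, so depth could be recovered. The deposited CPM were tested with limma 3.58.1 (trend and robust empirical Bayes) on log2(CPM + 1), for features of at least 1 CPM in at least 3 libraries, with group as the only term and Benjamini-Hochberg adjustment over all 11941. Fold changes on this scale understate changes of low genes.

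Single quantities such as shares of summed RPKM were compared by exact permutation over libraries. Alternatives were TMM, RLE, no filter, a filter at a mean of 5 CPM, 0.1 as pseudocount, a replicate block, edgeR 4.0.16, DESeq2 1.42.0 and limma-voom on recovered reads, and leaving out each library. Added after seeing the data were correction for GC content and length, and transcript length in place of the deposited one. The scripts were tested on simulated data. Positions, word sharing (50-base words in transcripts of other genes) and transcript lengths come from GENCODE M21 (GRCm38). The labels call the 3 samples of a group biological replicates, each a pool, so p-values measure the spread between pools. Libraries of a group differed by more than counting noise, with a chi-square per degree of freedom of 4.27 to 20.1, and none was taken as a repeat.

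The genes, gene lists and tests were chosen with earlier results of these data known. Named beyond the 10 genes and Itgb1 were, from each list, the 3 genes lowest in adjusted p and the 2 nearest patterns of each called gene. Ctnnd1, Mllt4, Pkp2, Zeb1, Zeb2, Foxe3, Snai1, Snai2, Twist1 and the marker genes given as examples were named after their values were seen. In the retina and pigment markers, 1 gene is not reported here and was left out of the sum.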

Additional observations from a re-analysis of the deposited data

How the results depend on the processing

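Cdh1, Cdh4 and Pvrl3 kept their direction and call in all 16 alternatives. The count of the 10 genes called higher was 2 to 3 over them (3, with Cdh11, without WT replicate 2). The count called lower was 1 to 3 with 1 library left out, at 1 (Cdh4) without cKO replicate 3. The replicate numbers were not taken to pair the libraries, because nothing in the labels says that equal numbers share a litter or day. For each library, every gene's deviation from its group mean was taken, and these deviations were correlated over genes between cKO and WT libraries. Same-numbered pairs gave 0.33, -0.03 and 0.15. By this measure the same-numbered WT library was the best match for cKO replicates 1 and 3. For cKO replicate 2 it was WT replicate 3 (0.21). The levels themselves, as log2(CPM + 1), correlated at 0.9735, 0.9762 and 0.9732 in the same-numbered pairs. With the replicate number as a block, 5 of the 10 genes were lower (Cdh2, Cdh4, Ctnna1, Ctnnb1 and Pvrl2), and 2916 features were higher and 2249 lower. The sign turned for Pvrl1 once GC content and length were corrected for (0.0060) and for the pigment marker Pmel, whose log2 fold change ran from -0.74 to 0.12 with 1 library left out (0.12 without WT replicate 2), and neither passed the test in either analysis. The cause was not tested. Cdh11 was not tested with a mean of at least 5 CPM. Over all features, calls ranged from 1714 to 2916 higher and from 1322 to 2392 lower. Depth limits Cdh11, with 13 to 84 reads in a library, and every gene near the filter in WT.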
